A study of Mus musculus with 6 samples.

Results

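The transcripts followed here were those of 37 genes that mark the macrophages of the mouse liver, measured by poly(A) RNA sequencing of fresh liver from C57BL/6 mice. They were picked by symbol from the 55401 Ensembl genes of the count table and fall into 4 classes: 12 genes of resident macrophages (Kupffer cells), 5 of monocytes and freshly recruited macrophages, 8 of lipid-associated macrophages and 12 shared by macrophages in general. All 37 were found and all 37 passed the low-count filter, which kept 17394 genes. The OP group (3 libraries) came from mice given okra polysaccharide, a plant carbohydrate preparation. The HFCF group (3 libraries) came from mice fed a diet rich in fat, cholesterol and fructose, used to produce fatty liver. The labels do not give the diet of the OP mice, the ages or doses, nor whether each library is its own animal; the p-values rest on the spread among these libraries, which may in part be technical. No group on standard chow enters the comparison.

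Kupffer cells are the self-renewing macrophages of the liver sinusoids, and they clear particles, complement-coated material and old red cells from portal blood. In fatty liver disease of the mouse part of this population can be lost and replaced from blood monocytes, which enter through the chemokine receptor CCR2. Recruited cells can take on a lipid-associated state, marked by the lipid-sensing receptor TREM2, GPNMB, osteopontin (Spp1) and tetraspanins. In whole liver RNA these transcripts are a small part of the total, and fewer cells of a type cannot be told apart from less RNA per cell.

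The libraries held 46459980 to 61918541 counts, and a count of 0 allows a level of as much as 0.0472 to 0.0625 CPM, depending on the library, which is that of 3 counts (CPM is the usual depth-normalised count, here with scaled library sizes, and the limit covers counting error only). The limit takes 1 count as 1 fragment; a count of 4 was commoner than 3 or 5 in every library, so a fragment may add more than 1 count, and the limit would then be higher. Hepatocyte transcripts fitted the labelled tissue, with Alb at 2.74 to 5.14% of counts in OP and 1.49 to 3.40% in HFCF. Mitochondrial mRNAs took 6.08 to 14.4% of counts in OP and 14.1 to 22.0% in HFCF. The 4 globin genes of red cells summed to 132, 344 and 164 CPM in OP, against 1254, 1719 and 887 CPM in HFCF, so globin RNA was lower in every OP library, while Alas2, a heme synthesis gene of young red cells, was not (59.5, 70.1 and 59.7 CPM in OP and 49.4, 47.9 and 53.8 CPM in HFCF). The part of blood content in the macrophage values was not tested.

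One of the 37 macrophage genes changed. Cd9, a tetraspanin of the lipid-associated class, fell in OP, and none rose, by the edgeR quasi-likelihood test at an adjusted p threshold of 0.05 (Benjamini-Hochberg, across all tested genes). That is 2.70% of the members, against 6.73% of all tested genes called in either direction, 3.26% higher and 3.47% lower. At an unadjusted p under 0.05 the counts were 1 higher and 4 lower, or 13.5% of members beside 25.2% of all genes. DESeq2 called 4 members lower (10.8%) and none higher, against 7.70% of all genes it tested lower and 8.08% higher. Limma-voom called 1 member lower (2.70%) and none higher, against 3.87% of all genes lower and 3.71% higher. In 8 of 37 members, or 21.6%, the libraries of the groups did not overlap, with 2 above and 6 below, where 31.2% of all tested genes did not overlap, 15.8% above and 15.4% below. In both directions together the members' share was under the background in edgeR, DESeq2, limma-voom and overlap. For genes called lower alone it was above the background in DESeq2 (10.8% against 7.70%). It was under it in edgeR (2.70% against 3.47%) and limma-voom (2.70% against 3.87%). The 6 of 37 members below without overlap were near the share of all genes (15.4%). The median log2 fold change (OP over HFCF) was -0.13 over the 37 members and 0.019 over all tested genes, and 15 members lay above 0 and 22 below, where 51.4% of all tested genes lay above 0. For 19 members the 95% interval of the fold change stayed within 2-fold in both directions. The interval of the log2 fold change included 0 for 32 members.

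**Figure D1:**
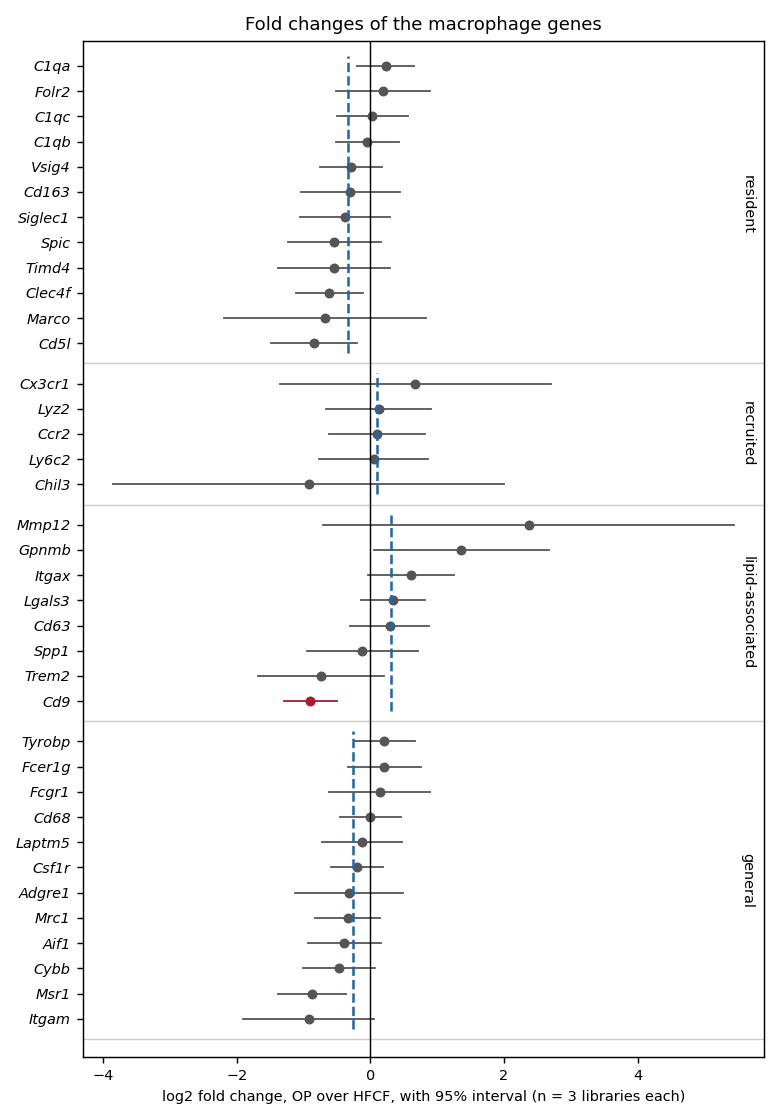
Log2 fold change (OP over HFCF) of each of the 37 macrophage genes, ordered within its class, with 95% intervals from the edgeR fit of 3 libraries per group. The dashed line is the median of the class and red marks Cd9, which passed the test at -0.90; the medians are -0.34 for resident, 0.097 for recruited, 0.31 for lipid-associated and -0.26 for general genes.

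Per kilobase of exon, the mean level over the 6 libraries was highest for Clec4f (45.8 CPM per kb), followed by Spp1 (39.4), Cd5l (33.4), C1qa (29.4), Lyz2 (27.7) and C1qb (26.8). The order differed between groups: in OP it began with Spp1 (37.8), Clec4f (36.2), C1qa (31.7), Lyz2 (28.9), C1qb (26.4) and Cd5l (23.9), and in HFCF with Clec4f (55.5), Cd5l (42.9), Spp1 (41.0), C1qb (27.2), C1qa (27.1) and Lyz2 (26.5). The same 6 genes thus led in both groups. Trem2 (0.309 CPM per kb), Cx3cr1 (0.231), Itgam (0.192), Mmp12 (0.0909) and Gpnmb (0.0779) stood at its end, so several lipid-associated and monocyte genes were read at low levels.

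Promoter windows of 300 bases (250 before to 50 after the start) were at hand for 31 of the 37 genes in RefSeq's GRCm38.p6 table. PU.1, the transcription factor encoded by Spi1 that macrophages need, binds elements built on GAGGAA. This motif, read on both strands, was in 17 of 31 member promoters (54.8%), against 28.3% of 27025 promoters of all genes. By class it was in 7 of 8 general promoters, 5 of 10 resident, 4 of 8 lipid-associated and 1 of 5 recruited. TATAAA on the sense strand was in 3 of 31 member promoters (9.68%), against 8.88% of all. The windows printed here belong to the gene that changed, the leading Kupffer cell genes and the integrin gene richest in the motif. Capitals mark GAGGAA or its reverse complement TTCCTC, and a match is not evidence of binding.
Cd9 (chr6:125494711-125495010, minus strand): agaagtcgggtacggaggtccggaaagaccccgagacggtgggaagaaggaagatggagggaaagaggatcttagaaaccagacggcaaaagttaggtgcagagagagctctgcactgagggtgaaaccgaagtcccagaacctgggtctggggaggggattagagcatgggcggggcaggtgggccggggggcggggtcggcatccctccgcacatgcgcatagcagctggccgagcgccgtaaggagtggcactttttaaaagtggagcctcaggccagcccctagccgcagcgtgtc
Clec4f (chr6:83656067-83656366, minus strand): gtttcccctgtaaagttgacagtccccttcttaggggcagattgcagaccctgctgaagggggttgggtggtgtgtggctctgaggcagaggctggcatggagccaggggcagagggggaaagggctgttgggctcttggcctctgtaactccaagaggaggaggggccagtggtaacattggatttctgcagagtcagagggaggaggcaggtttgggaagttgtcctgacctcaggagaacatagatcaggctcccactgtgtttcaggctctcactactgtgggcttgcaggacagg
Cd5l (chr3:87357631-87357930, plus strand): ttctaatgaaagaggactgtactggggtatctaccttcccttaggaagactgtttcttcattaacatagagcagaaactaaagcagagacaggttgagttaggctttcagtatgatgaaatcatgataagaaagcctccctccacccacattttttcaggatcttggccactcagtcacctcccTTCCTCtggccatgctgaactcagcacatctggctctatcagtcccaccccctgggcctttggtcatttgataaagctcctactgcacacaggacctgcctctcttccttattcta
Itgam (chr7:128062390-128062689, plus strand): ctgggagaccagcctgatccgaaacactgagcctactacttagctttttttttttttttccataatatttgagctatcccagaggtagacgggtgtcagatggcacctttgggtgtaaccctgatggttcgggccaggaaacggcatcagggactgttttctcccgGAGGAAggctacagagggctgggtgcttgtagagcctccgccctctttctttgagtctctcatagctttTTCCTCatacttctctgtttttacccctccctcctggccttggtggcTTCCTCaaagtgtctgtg
The windows of Cd9 and Clec4f hold no match, that of Cd5l holds 1 and that of Itgam holds 3. Mrc1 also had 3, and Cd63, Cd68, Ly6c2 and Vsig4 had 2 each.

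Among resident genes the Kupffer cell identity markers lay lower in OP, without passing the test, and the complement chains did not. Clec4f (ENSMUSG00000014542), a lectin that in the mouse is made by Kupffer cells, was at 72.6, 94.9 and 101 CPM in OP, against 151, 163 and 97.4 CPM in HFCF. HFCF replicate 3 lay inside the OP range and the other HFCF libraries above it. Its log2 fold change was -0.62 ± 0.22 (SE; 95% interval -1.12 to -0.11; edgeR adjusted p = 0.125). Cd5l (ENSMUSG00000015854), a secreted scavenger protein of tissue macrophages, was at 31.3, 71.5 and 43.4 CPM in OP, against 79.3, 102 and 80.4 CPM in HFCF. Every OP library was below every HFCF library, though OP replicate 2 came close. The log2 fold change was -0.84 ± 0.28 (95% interval -1.49 to -0.20; edgeR adjusted p = 0.107). Without OP replicate 2 the log2 fold change of Cd5l was -1.22, with an edgeR adjusted p of 0.0273. Leaving out HFCF replicate 3 gave Clec4f a log2 fold change of -0.81 and an edgeR adjusted p of 0.0458. Over 19 refits Clec4f passed in 2 and Cd5l in 3. With the mitochondrial share as a covariate Clec4f was at -0.13 (edgeR adjusted p = 0.870) and Cd5l at -1.10 (edgeR adjusted p = 0.299), and with OP replicate 1 left out they were at -0.49 (edgeR adjusted p = 0.331) and -0.60 (edgeR adjusted p = 0.257).

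Timd4, a phosphatidylserine receptor of long-resident Kupffer cells, was at 2.05, 5.30 and 2.66 CPM in OP and 3.88, 4.95 and 5.76 CPM in HFCF. Vsig4, a receptor for complement-coated particles, was at 9.51, 14.1 and 9.18 CPM in OP and 12.1, 15.3 and 12.6 CPM in HFCF. Both groups overlapped for each gene because of OP replicate 2. Marco, a scavenger receptor, was at 3.40, 19.5 and 6.20 CPM in OP and 8.61, 9.46 and 28.5 CPM in HFCF. OP replicate 2 and HFCF replicate 3 stood far above the others of their groups. The log2 fold change of Marco was -0.68 with all libraries, 0.10 once HFCF replicate 3 was left out and -1.70 once OP replicate 2 was. Des, a muscle and stellate cell filament gene, stood out in the same libraries, at 5.30, 76.2 and 5.35 CPM in OP and 3.84, 6.11 and 22.5 CPM in HFCF. Des was picked from 7 stellate cell markers, of which the other 6 did not stand out there: Dcn, for one, was at 145, 104 and 113 CPM in OP and 93.7, 124 and 87.7 CPM in HFCF. The part of cells with Des in the Marco values was not tested.

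The 5 Kupffer cell markers Clec4f, Timd4, Vsig4, Cd5l and Marco summed to 119, 205 and 162 CPM in OP, against 255, 295 and 225 CPM in HFCF. The groups did not overlap, and Clec4f and Cd5l made up most of each sum. Over all 12 resident genes the sums were 213, 336 and 242 CPM in OP and 343, 407 and 325 CPM in HFCF, and here the groups overlapped, with OP replicate 2 above HFCF replicate 3. All 5 had log2 fold changes below 0, and none passed edgeR's test. The 3 chains of C1q, the first component of complement, lay on both sides of 0. C1qa was at 30.8, 40.7 and 27.6 CPM in OP and 23.6, 32.2 and 28.7 CPM in HFCF. C1qb averaged 28.7 ± 8.52 CPM in OP and 29.6 ± 0.918 CPM in HFCF (SD, n = 3 each), and C1qc averaged 22.0 ± 7.01 CPM in OP and 21.6 ± 3.26 CPM in HFCF. Their log2 fold changes were 0.23, -0.047 and 0.027, with 95% intervals of -0.20 to 0.66, -0.52 to 0.42 and -0.51 to 0.56.

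The remaining resident genes lay between -0.54 and 0.19. Spic, a transcription factor of heme-handling macrophages, was at 1.98, 1.31 and 2.12 CPM in OP and 3.13, 2.39 and 2.34 CPM in HFCF. The groups did not overlap, and the edgeR adjusted p was 0.317. Siglec1, a sialic acid-binding lectin, was at -0.38 (log2), Cd163, the receptor for hemoglobin-haptoglobin complexes, at -0.30, and Folr2, a folate receptor, at 0.19. Folr2 has exon bases in common with Gm10602, an antisense gene at -0.66, and whether the counts respect strand is unknown here, so the reads of the pair may be mixed. In all, 0 of 12 resident genes passed in edgeR and in limma-voom. There were 2 at an unadjusted p under 0.05, both lower, and DESeq2 called 2 lower. Among all tested genes 12.2% were lower at that unadjusted p, and DESeq2 called 7.70% of those it tested lower.

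Of the general macrophage genes 9 of 12 lay below 0. Msr1 (ENSMUSG00000025044), the class A scavenger receptor, was at 4.82, 7.23 and 6.04 CPM in OP, against 11.9, 12.7 and 8.62 CPM in HFCF. All OP libraries were below all HFCF libraries, and the log2 fold change was -0.88 ± 0.22 (95% interval -1.39 to -0.36; edgeR adjusted p = 0.0549). Msr1 was the member closest to the threshold without passing, and it passed in 6 of 19 refits, which ranged from -1.19 to -0.67. Itgam, the alpha M integrin chain of myeloid cells, was at 0.550, 0.881 and 0.562 CPM in OP and 1.12, 1.73 and 0.958 CPM in HFCF. These groups did not overlap either (log2 fold change -0.93 ± 0.43; edgeR adjusted p = 0.221). Itgam overlaps Gm49368 over 3450 exon bases of its own strand, so reads that fit both may have been set aside or split, and Gm49368 itself held 1, 0 and 0 counts in OP and 10, 2 and 4 in HFCF.

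The other general genes lay between -0.48 and 0.20 (log2), and none had an unadjusted p under 0.05. Csf1r, the receptor for the macrophage growth factor CSF-1, was at 24.3, 33.7 and 29.4 CPM in OP and 34.3, 37.2 and 28.6 CPM in HFCF, and it overlaps Hmgxb3 on the other strand over 873 exon bases. Cd68, a lysosomal membrane protein of macrophages, averaged 7.39 ± 0.687 CPM in OP and 7.40 ± 1.45 CPM in HFCF. The 95% interval of Cd68 ran from -0.46 to 0.46 (log2) and that of Csf1r from -0.58 to 0.19. Adgre1, which encodes the classic surface antigen of mouse macrophages, was at 2.02, 4.54 and 2.00 CPM in OP and 3.59, 3.62 and 3.55 CPM in HFCF. Its HFCF libraries were nearly level, while the OP libraries lay on both sides of them. Cybb, the catalytic subunit of the phagocyte NADPH oxidase, was at -0.48 (log2), Aif1, an actin-binding protein, at -0.39, and Laptm5, a lysosomal protein of blood cells, at -0.13. Tyrobp and Fcer1g, the signalling adaptors of TREM2 and of Fc receptors, were both at 0.20, and Fcgr1, the high-affinity IgG receptor, at 0.14.

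Mrc1, the mannose receptor, is made by liver sinusoidal endothelium as well as by macrophages. It was at 18.8, 19.7 and 30.5 CPM in OP and 32.1, 31.1 and 24.3 CPM in HFCF. The endothelial scavenger receptor gene Stab2 was at 45.5, 30.5 and 58.2 CPM in OP and 89.4, 81.6 and 44.5 CPM in HFCF, so OP replicate 3, HFCF replicate 1 and HFCF replicate 2 were the high libraries for both genes. Stab2 was picked from 8 endothelial markers, of which 6 lay above 0 (median 0.21, log2), and others had another order, such as Clec4g with 30.6, 25.0 and 37.2 CPM in OP and 28.2, 20.4 and 20.2 CPM in HFCF. The part of endothelium in the Mrc1 values was not tested. Over the class, 0 of 12 general genes passed in edgeR and in limma-voom, with 1 at an unadjusted p under 0.05 (lower), and DESeq2 called 1 lower. The shares over all genes were 12.2% lower at that unadjusted p and 7.70% called lower by DESeq2.

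No recruited macrophage gene passed the test in either direction. Ccr2, the chemokine receptor of inflammatory monocytes, was at 2.18, 2.94 and 2.17 CPM in OP and 2.72, 2.56 and 1.55 CPM in HFCF. Ly6c2, a surface marker of the same monocytes, was at 1.13, 1.16 and 0.874 CPM in OP and 1.10, 1.06 and 0.908 CPM in HFCF. The groups overlapped for both, with 95% intervals of -0.62 to 0.82 for Ccr2 and -0.77 to 0.87 for Ly6c2 (log2). Ly6c2 has a near-identical copy, Ly6c1, which was at 1.02, 3.44 and 0.333 CPM in OP and 0.456, 0.728 and 3.96 CPM in HFCF, so the split of reads between the copies is uncertain. Lyz2, the lysozyme of myeloid cells, was at 27.8, 62.5 and 23.7 CPM in OP and 28.5, 35.2 and 40.8 CPM in HFCF. OP replicate 2 was the highest library, and without it the log2 fold change of Lyz2 was -0.43, against 0.13 with all libraries.

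The last genes of this class rested on few reads. Cx3cr1, the fractalkine receptor, had 103, 64 and 53 counts in OP and 60, 55 and 2 counts in HFCF. The low library, HFCF replicate 3, was also low for Irf8, a transcription factor of monocytes and dendritic cells, at 8.31, 8.43 and 11.0 CPM in OP and 8.63, 10.5 and 1.68 CPM in HFCF. With HFCF replicate 3 left out, Cx3cr1 was at a log2 fold change of 0.095, against 0.67 with all libraries. Chil3, a chitinase-like protein, had 0, 30 and 45 counts in OP and 91, 33 and 6 counts in HFCF, and neither group had a consistent level. None of the 5 recruited genes passed in edgeR, DESeq2 or limma-voom, and none had an unadjusted p under 0.05.

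Lipid-associated genes went in opposite directions. Cd9 (ENSMUSG00000030342) fell to 5.97, 8.02 and 7.66 CPM in OP, against 12.5, 14.8 and 13.1 CPM in HFCF. The highest OP library was well below the lowest HFCF library, and the group means were 7.22 ± 1.10 CPM in OP and 13.5 ± 1.17 CPM in HFCF (SD, n = 3 each). The log2 fold change was -0.90 ± 0.17 (95% interval -1.30 to -0.50; edgeR adjusted p = 0.0239), a level in OP that was 0.536 times that in HFCF. Cd9 is also made by many other cells of the liver, so its level in whole tissue is not a measure of macrophages alone. The call was lost without OP replicate 1 (-0.78), HFCF replicate 1 (-0.95) or HFCF replicate 2 (-0.86), and the direction held whichever library was left out. It was also lost with the mitochondrial share as a covariate (-0.87, edgeR adjusted p = 0.175) and with OP replicate 2 and HFCF replicate 3 left out together (-1.01, edgeR adjusted p = 0.0629). A fit with the replicate number as a block lost it as well.

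Trem2, the receptor that defines the lipid-associated state, was at 1.12, 1.18 and 1.12 CPM in OP and 1.49, 3.06 and 1.19 CPM in HFCF. The OP libraries were all lower, by a small margin from HFCF replicate 3, and HFCF replicate 2 stood apart. The log2 fold change of -0.74 ± 0.41 (95% interval -1.69 to 0.20; edgeR adjusted p = 0.307) was -0.26 without HFCF replicate 2. Gpnmb, a glycoprotein of lipid-laden macrophages, lay the other way, at 1.08, 0.550 and 0.562 CPM in OP and 0.166, 0.353 and 0.330 CPM in HFCF. All OP libraries were above all HFCF libraries, on 27 to 65 counts in OP and 8 to 20 in HFCF (log2 fold change 1.36 ± 0.57; 95% interval 0.052 to 2.67; edgeR adjusted p = 0.183). Itgax, the alpha X integrin chain of dendritic cells and lipid-associated macrophages, was at 3.35, 2.83 and 2.25 CPM in OP and 1.78, 2.08 and 1.65 CPM in HFCF. The groups again did not overlap, and Itgax did not pass (0.61 ± 0.28; edgeR adjusted p = 0.218). Mmp12, the macrophage elastase, had 74, 35 and 73 counts in OP and 0, 31 and 0 counts in HFCF (edgeR adjusted p = 0.317).

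Spp1, which encodes osteopontin, was at 77.5, 57.1 and 52.0 CPM in OP and 45.8, 114 and 43.5 CPM in HFCF. HFCF replicate 2 alone stood above the OP range, and without that library the log2 fold change was 0.44, against -0.12 with all libraries. Bile duct cells make Spp1 too, and HFCF replicate 2 was also the highest HFCF library for their markers Krt19 (1.37, 1.23 and 0.541 CPM in OP; 0.394, 2.35 and 1.02 CPM in HFCF) and Epcam (3.58, 3.57 and 1.21 CPM in OP; 2.14, 5.95 and 1.83 CPM in HFCF). Krt19 and Epcam were picked from 6 bile duct markers, and Krt7, Sox9 and Tspan8 were also highest in HFCF replicate 2 among HFCF libraries. Tm4sf4, the marker with the highest level, was instead highest in HFCF replicate 3, at 38.1, 45.4 and 66.7 CPM in HFCF. The sum of the markers was highest there too, at 45.0, 63.1 and 75.2 CPM in HFCF. The part of bile duct cells in the Spp1 values was not tested. Cd63, a tetraspanin of late endosomes, averaged 7.02 ± 1.75 CPM in OP and 5.77 ± 1.38 CPM in HFCF. Lgals3, which encodes galectin-3, averaged 7.48 ± 1.01 CPM in OP and 5.92 ± 1.15 CPM in HFCF, and neither passed. In this class 1 of 8 genes passed in edgeR, DESeq2 and limma-voom alike, lower in each. Over all genes these called 3.47%, 7.70% and 3.87% lower.

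**Figure D2:**
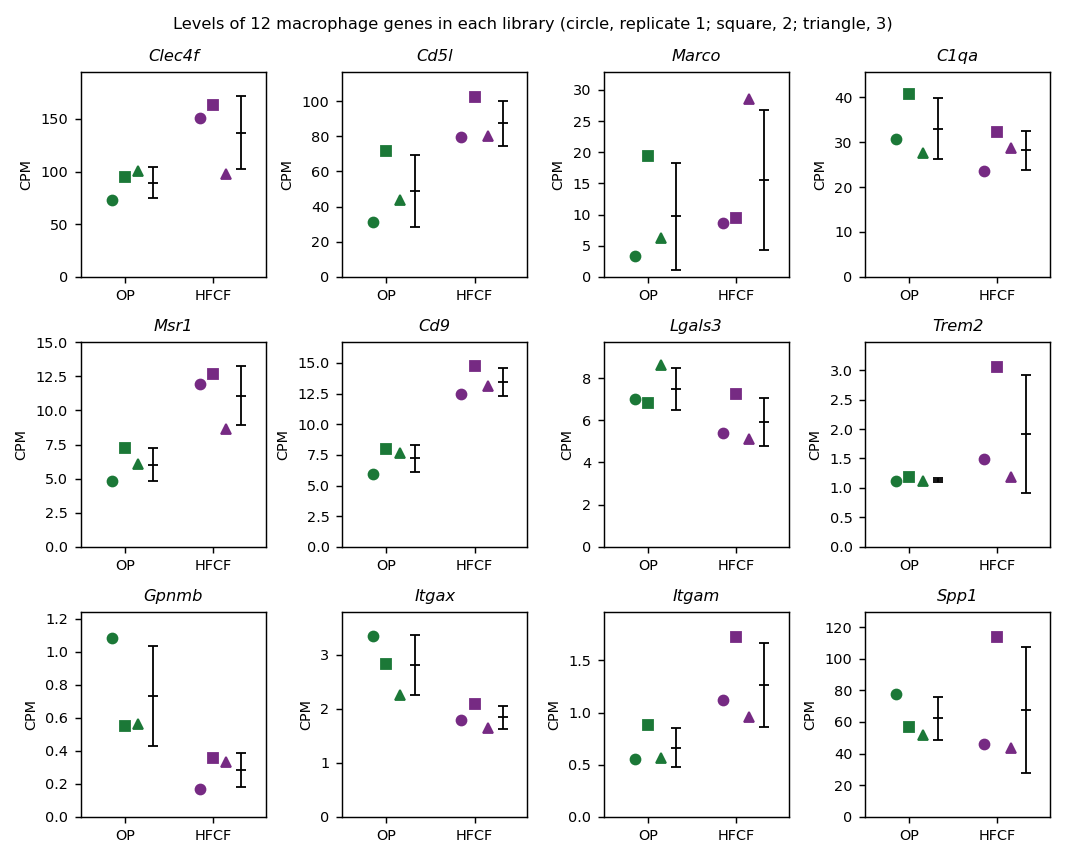
Level (CPM, linear axis from 0) of 12 macrophage genes in each OP library (green) and HFCF library (purple), with the mean and SD of 3 libraries as black bars. Cd9 (5.97 to 8.02 CPM in OP, 12.5 to 14.8 CPM in HFCF), Cd5l, Msr1, Trem2 and Itgam lie lower in every OP library. Gpnmb and Itgax lie higher in every OP library. Of these only Cd9 passed the test, and 31.2% of all tested genes did not overlap between groups. Single libraries carry the high values of Marco, Trem2 and Spp1.

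Set side by side, the class medians lay on both sides of 0. The median log2 fold change was -0.34 for resident genes (9 of 12 below 0), 0.097 for recruited genes (1 of 5 below 0), 0.31 for lipid-associated genes (3 of 8 below 0) and -0.26 for general genes (9 of 12 below 0). Against the median of 0.019 over all tested genes, resident and general genes thus lay to the lower side and lipid-associated genes to the higher side. The lipid-associated class was the most spread, from -0.90 for Cd9 to 2.37 for Mmp12. Its median was 0.054 with the 1 CPM filter, which left out low genes of the class. No test of a difference between classes was made.

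Ratios within a library do not depend on its scaling, and those given here were chosen after their values were seen. Itgax counts were 6.09, 3.21 and 4 times those of Itgam in OP, against 1.59, 1.20 and 1.72 times in HFCF. These integrin alpha chains, which pair with the same beta chain, had a higher ratio in every OP library than in any HFCF library. Lgals3 counts were 1.17, 0.849 and 1.13 times those of Cd9 in OP, against 0.433, 0.490 and 0.391 times in HFCF. C1qa counts, whose product is built into the same protein as that of C1qb, were 1.16, 1.07 and 1.29 times those of C1qb in OP, against 0.809, 1.05 and 0.989 times in HFCF. The groups did not overlap for any of these 3 pairs, by the smallest margin for C1qa and C1qb. Nor did they for Gpnmb over Clec4f, C1qa over C1qc, and Tyrobp and Fcer1g over Csf1r. They overlapped for Trem2, C1qa, Marco and Csf1r, each over Clec4f, and for Cd68 over Adgre1 and Ly6c2 over Ccr2. The pair of Lgals3 and Cd9 holds the fall of Cd9 given above.

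Libraries within a group carried much of the spread. OP replicate 2 was the highest OP library for 25 of 37 members (67.6%), against 34.7% of all tested genes, and HFCF replicate 2 was the highest HFCF library for 25 of 37 members (67.6%), against 30.6% of all tested genes. In resident genes OP replicate 2 led in 10 of 12, and in lipid-associated genes HFCF replicate 2 led in 8 of 8. The members thus tended to be high or low in the same library of a group, which the comparison counts as spread. Summed over the 37 genes, the level was 446, 624 and 471 CPM in OP and 591, 752 and 552 CPM in HFCF, and the groups overlapped.

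**Figure D3:**
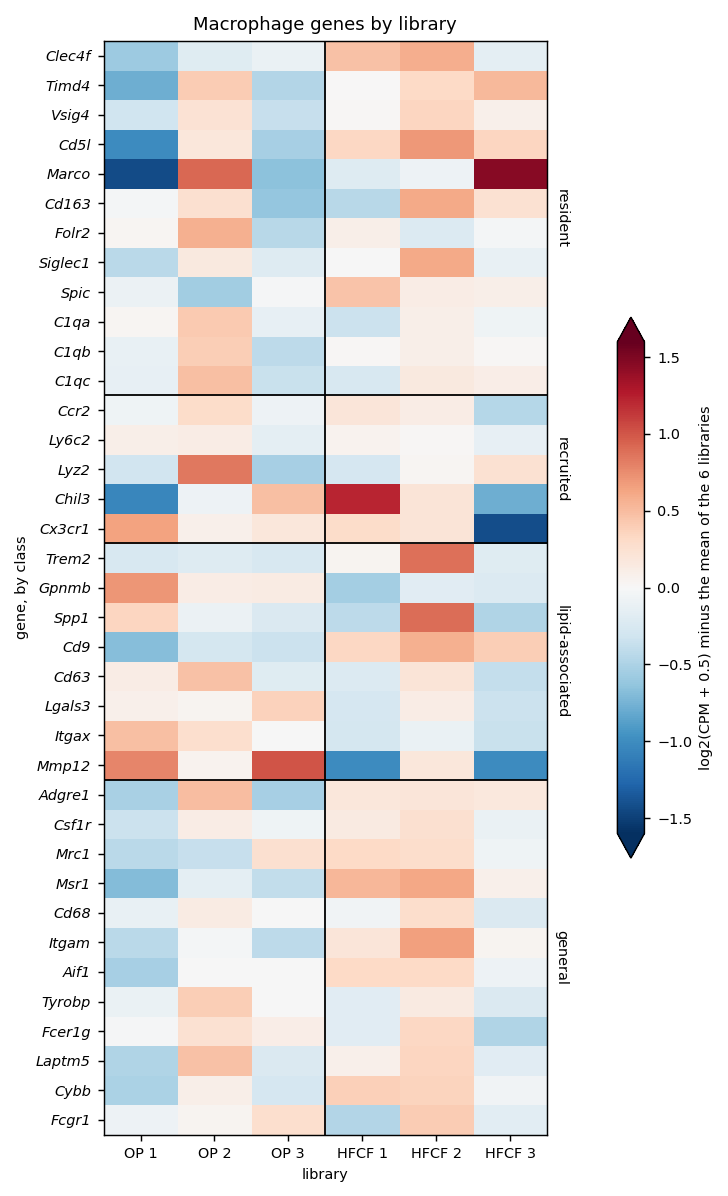
Each cell is log2(CPM + 0.5) of 1 gene in 1 library minus the mean of the 6 libraries (red higher, blue lower; the scale ends at the extended tips), with OP libraries on the left and genes grouped by class. The columns of OP replicate 2 and HFCF replicate 2 are mostly red, each being the highest of its group for 25 of 37 genes, and Marco stands out in OP replicate 2 and HFCF replicate 3.

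Markers of other cells are given here beside the macrophage genes. Hepatocyte markers summed to 66365 to 85807 CPM in OP and 36613 to 57403 CPM in HFCF, without overlap. All 5 had log2 fold changes above 0 (median 0.78), in 4 of them without overlap. Ttr, a thyroid hormone carrier, rose by 1.13 (edgeR adjusted p = 0.019), and DESeq2 called 4 higher and limma-voom 2. Over all tested genes 15.8% lay above without overlap. EdgeR, DESeq2 and limma-voom called 3.26%, 8.08% and 3.71% of all genes higher. Of 5 red cell markers, the 4 globin genes fell in OP and Alas2 did not pass (0.33, log2), where edgeR called 3.47% of all genes lower. Of 8 neutrophil markers 5 were tested, all with log2 fold changes below 0 (-3.62 to -0.40) and none passing in edgeR. At an unadjusted p under 0.05 there were 2, beside 12.2% of all tested genes lower. DESeq2 called 1 lower, beside 7.70% of all genes it tested. Ly6g, the defining neutrophil marker, was at 0 in all libraries but HFCF replicate 2, which held 7 counts. The neutrophil sum was 4.31 to 7.64 CPM in OP and 8.27 to 13.3 CPM in HFCF. The recruited class, which includes blood monocyte genes, summed to 32.8, 68.1 and 28.8 CPM in OP and 35.4, 40.7 and 43.4 CPM in HFCF. Lyz2 made up most of each sum. The groups overlapped because of OP replicate 2, where Lyz2 was at 62.5 CPM, and the other OP libraries lay below every HFCF library. Of 6 dendritic cell markers, which bear on Itgax, 2 lay above 0 and 4 below, with mean sums of 17.9 ± 5.28 CPM in OP and 16.6 ± 3.17 CPM in HFCF and none called by edgeR, DESeq2 or limma-voom, nor at an unadjusted p under 0.05.

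B cell markers summed to 5.25 to 19.6 CPM in OP and 15.0 to 29.1 CPM in HFCF, with all 4 below 0. T cell markers summed to 3.29 to 6.59 CPM in OP and 3.24 to 7.61 CPM in HFCF, and NK cell markers to 1.75 to 2.37 CPM in OP and 3.68 to 4.02 CPM in HFCF. None of these 16 lymphocyte markers passed in edgeR, DESeq2 or limma-voom. An unadjusted p under 0.05 was held by 2 B cell markers and by 25.2% of all tested genes. Sinusoidal endothelial markers summed to 130 to 179 CPM in OP and 135 to 195 CPM in HFCF, stellate cell markers to 356 to 458 CPM in OP and 268 to 366 CPM in HFCF, and bile duct markers to 55.6 to 85.9 CPM in OP and 45.0 to 75.2 CPM in HFCF. Adipocyte markers, 3 of 5 tested, summed to 12.2, 30.9 and 64.7 CPM in OP and 0, 0.104 and 4.36 CPM in HFCF, most of it Cfd. Mesothelial markers summed to 0.167 to 3.27 CPM in OP and 0.974 to 2.08 CPM in HFCF. The part of these cells in the macrophage values was not tested.

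**Figure D4:**
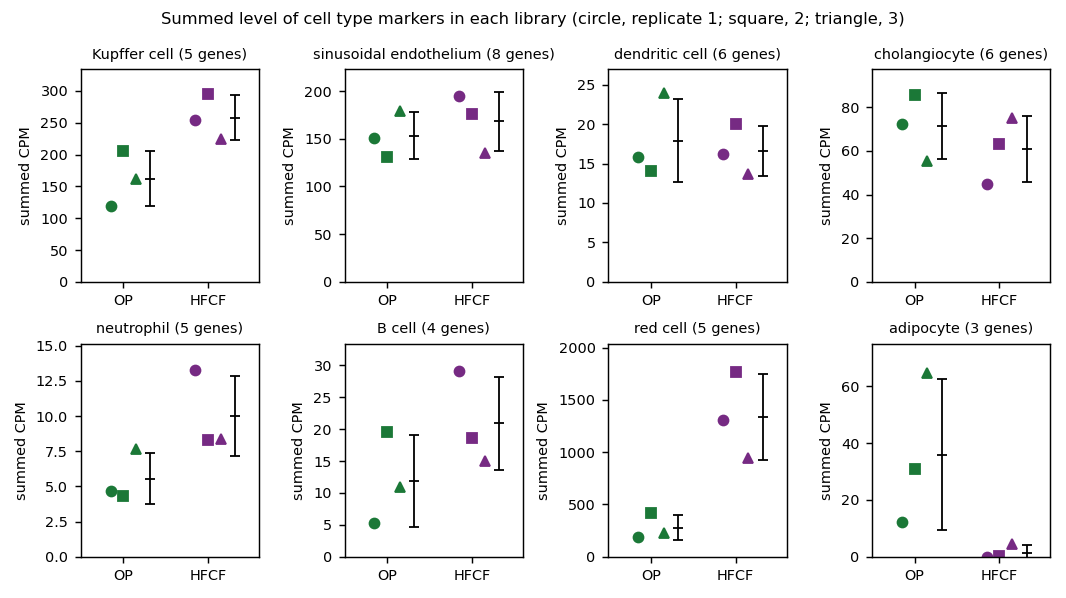
Summed CPM (linear axis from 0) of the tested markers of 8 cell types in each OP library (green) and HFCF library (purple), with the mean and SD of 3 libraries as black bars. The 5 Kupffer cell markers lie at 119 to 205 CPM in OP and 225 to 295 CPM in HFCF (all 12 resident genes, not drawn, at 213 to 336 CPM in OP and 325 to 407 CPM in HFCF), red cell markers at 192 to 414 CPM in OP and 941 to 1767 CPM in HFCF, and endothelial, dendritic and bile duct markers overlap.

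Of the related lists, which hold genes that act on or within macrophages, only that of lysosome and lipid-handling genes held calls in edgeR. Over all tested genes 6.73% were called. Csf1, the growth factor that sustains Kupffer cells, was at 14.4, 9.15 and 11.6 CPM in OP and 14.6, 13.3 and 9.41 CPM in HFCF. Il34, the other ligand of the same receptor, was at 2.87, 1.79 and 1.54 CPM in OP and 1.31, 2.56 and 0.660 CPM in HFCF. The groups overlapped for both, with log2 fold changes of -0.085 and 0.46, while Csf2 and Csf3 had 0 counts in all libraries. Neither tested growth factor had an unadjusted p under 0.05, and DESeq2 and limma-voom called none.

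Of 13 monocyte chemokines and receptors 12 were tested and none passed in edgeR, DESeq2 or limma-voom, with 1 (higher) at an unadjusted p under 0.05. Ccl2, the main ligand of CCR2, had 22, 38 and 102 counts in OP and 0, 20 and 16 counts in HFCF. Ccl7, another ligand of that receptor, had 11, 19 and 12 counts in OP and 0, 4 and 0 counts in HFCF. The groups overlapped for Ccl2 (edgeR adjusted p = 0.258) and did not for Ccl7 (edgeR adjusted p = 0.167), on counts this low. Ccl12, a further ligand, had 8, 4 and 0 counts in OP and 0 in each HFCF library and was not tested. Ccl3, a chemokine of activated macrophages, had 16, 14 and 18 counts in OP and 0, 2 and 9 counts in HFCF.

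Of 16 macrophage transcription factors none passed in edgeR or limma-voom, with 1 higher and 1 lower at an unadjusted p under 0.05 and 1 called lower by DESeq2. Spi1, which encodes PU.1, was at 3.27, 4.39 and 4.52 CPM in OP and 4.19, 4.12 and 4.0 CPM in HFCF. Nr1h3, the liver X receptor alpha, which Kupffer cells need and hepatocytes also make, was at 95.1, 107 and 97.0 CPM in OP and 82.9, 77.2 and 77.9 CPM in HFCF. Spi1 overlapped between groups and Nr1h3 did not (log2 fold change 0.33 ± 0.13; edgeR adjusted p = 0.151). Id3, a regulator needed for Kupffer cell development in the mouse, was at 0.36 (log2), and its relative Id1 at 0.23. The gene lower at an unadjusted p under 0.05 was Bhlhe41, at 1.83, 2.42 and 3.58 CPM in OP and 3.73, 6.42 and 6.62 CPM in HFCF. Its log2 fold change was -1.10 (edgeR adjusted p = 0.0834).

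Of 15 clearance receptors and iron-handling genes 14 were tested and none passed in edgeR, with 2 at an unadjusted p under 0.05, both higher; DESeq2 called 2 higher and limma-voom 1. The list had 8 of 14 genes above 0 (median 0.19, log2). Cd36, a scavenger receptor for fatty acids and oxidised lipoproteins, was at 55.8, 81.5 and 48.0 CPM in OP and 9.79, 9.13 and 33.4 CPM in HFCF (1.82, log2; edgeR adjusted p = 0.0624). Hmox1, the heme-degrading enzyme, averaged 11.6 ± 0.485 CPM in OP and 7.50 ± 1.09 CPM in HFCF (SD, n = 3 each; 0.63, log2; edgeR adjusted p = 0.0608). All OP libraries were above all HFCF libraries for both genes, which were added for being the 2 at an unadjusted p under 0.05. Axl and Mertk, receptors for dying cells, were at -0.11 and -0.47 (log2), and Stab1, a scavenger receptor shared with endothelium, at -0.53. Of 7 complement receptors and C1 partners none passed in edgeR, DESeq2 or limma-voom, with 2 higher at an unadjusted p under 0.05. These were C3 and C5ar1, which had 21, 40 and 60 counts in OP and 6, 10 and 9 counts in HFCF. The log2 fold change of C5ar1 was 2.19 (edgeR adjusted p = 0.0837). C1ra and C1s1, the proteases that C1q activates, were at 0.26 and -0.037 (log2), C3 at 0.39 and C3ar1, the receptor for its fragment, at -0.29.

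Among 11 lysosome and lipid-handling genes high in lipid-laden macrophages, 2 rose and 1 fell. Of all tested genes edgeR called 3.26% higher and 3.47% lower. Ctsb, the protease cathepsin B, rose to 472, 491 and 373 CPM in OP, against 221, 245 and 314 CPM in HFCF (log2 fold change 0.78 ± 0.18; edgeR adjusted p = 0.0431). Ctsl, the related cathepsin L, fell to 406, 439 and 331 CPM in OP, against 701, 614 and 691 CPM in HFCF (-0.77 ± 0.16; edgeR adjusted p = 0.0286). Apoe, a lipoprotein component, rose by 0.89 ± 0.21 (edgeR adjusted p = 0.0447). Ctsb and Ctsl have exon overlaps with other genes, Ctsb over 774 bases with Fdft1 on the other strand. Ctsl overlaps the antisense Gm47123 over 1742 bases and the pseudogene Gm49230, on its own strand, over 395. Hepatocytes make Ctsb, Ctsl and Apoe in quantity, so these levels in whole liver are not specific to macrophages, and the calls depended on the settings. With each library left out in turn the list had 0 to 3 higher calls and 0 to 1 lower. The higher calls numbered 0 with total-count scaling, no low-count filter, the mitochondrial covariate, an adjusted p under 0.01, or OP replicate 2 and HFCF replicate 3 left out together, and 1 with RLE scaling. The lower call was lost with that covariate, at that threshold and with those libraries left out.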

How the data were processed

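Fresh mouse liver RNA was made into poly(A) libraries with dUTP strand marking, per the labels' protocols. The submitters' processing notes name cutadapt 1.9, FastQC and GRCm39; unknown are the aligner, counter and strand setting, not given in the sources used here. For 6 libraries, the authors deposited whole-number counts per Ensembl gene. In each library a count of 4 is commoner than 3 or 5, and a read pair may therefore add more than 1 to a count.

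Symbols matched 55141 of 55401 identifiers. GENCODE M21 (GRCm38) served for exon lengths and overlaps, with no coordinates. Promoters are RefSeq's (GRCm38.p6), the first listed for a gene. The tests used edgeR 4.0.16 in R 4.3.3 (filterByExpr, which kept 17394 of 27893 genes with a count, TMM scaling, glmQLFit and glmQLFTest), two-sided for OP minus HFCF. P-values were adjusted by Benjamini-Hochberg across these genes, with 0.05 as threshold. Standard errors are the size of the log2 fold change over the root of F, with 95% intervals from the degrees of freedom of the fit. The scripts were tested on simulated data. Members and lists were chosen with earlier results of these data known. The genes named by rule are all 37 members, related genes that passed and otherwise the first 4 of a list as written. Single marker genes, Cd36, Hmox1, Bhlhe41, C5ar1, Irf8, ratios and the promoters printed were chosen after their values were seen. One hepatocyte marker, Tf, matched no symbol. Alternatives were RLE, upper quartile and total-count scaling, no filter or 1 CPM in 3 libraries, DESeq2 1.42.0, limma-voom (limma 3.58.1), robust dispersion, a replicate block, mitochondrial genes left out or their share as covariate, counts divided by 4, thresholds of 0.1 and 0.01, each library left out and, chosen after seeing the data, OP replicate 2 and HFCF replicate 3 left out together. Figures used matplotlib 3.10.9.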

Additional observations from a re-analysis of the deposited data

How the results depend on the processing

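The count of macrophage genes called higher was 0 under every alternative run. The count called lower, 1 with the settings of the text, was 2 with the 1 CPM filter, robust dispersion, counts divided by 4, an adjusted p under 0.1, or OP replicate 2 and HFCF replicate 3 left out together; 4 with DESeq2; 0 with the mitochondrial share as a covariate or an adjusted p under 0.01; and 0 to 3 with each library left out. Cd9 kept its direction under all 19 refits (-1.01 to -0.78) and its call in 13. Class medians with each library left out were -0.52 to -0.17 (resident), -0.062 to 0.24 (recruited), 0.20 to 0.47 (lipid-associated), -0.39 to -0.10 (general) and -0.31 to -0.030 (all 37); with OP replicate 2 and HFCF replicate 3 left out (chosen after seeing the data) the recruited median was -0.29. Over all genes the calls higher and lower were 567 and 603, against 298 and 400 with no low-count filter, 1194 and 1139 with DESeq2, 110 and 97 with the mitochondrial covariate, 282 and 264 with those 2 libraries left out, 1322 and 1230 at 0.1, 72 and 92 at 0.01, and 34 to 655 and 54 to 655 with each library left out.

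Members that had not passed turned sign under these alternatives. With the mitochondrial covariate Folr2 was at -0.40, C1qa -0.17, C1qc -0.59, Ly6c2 -0.064, Lyz2 -0.88, Chil3 2.42, Cd63 -0.00999, Mrc1 0.26 and Cd68 0.078. With OP replicate 2 and HFCF replicate 3 left out Folr2 was at -0.16, C1qc -0.22, Ccr2 -0.29, Ly6c2 -0.11, Lyz2 -0.32, Cd63 -0.060, Tyrobp -0.055 and Fcer1g -0.061. With limma-voom C1qc was at -0.00079, Spp1 0.010 and Cd68 0.028, and with upper quartile scaling C1qc was at -0.0044. With each library left out the ranges were -1.70 to 0.10 for Marco, -0.15 to 0.42 for Folr2, -0.30 to 0.12 for C1qb, -0.26 to 0.20 for C1qc, -0.12 to 0.24 for Ccr2, -0.029 to 0.17 for Ly6c2, -0.43 to 0.37 for Lyz2, -1.90 to 0.26 for Chil3, -0.36 to 0.44 for Spp1, -0.12 to 0.13 for Cd68, -0.47 to 0.062 for Laptm5 and -0.072 to 0.45 for Fcgr1. The cause of these shifts was not tested.

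With the replicate number as a replicate block, 0 macrophage genes were called lower (Cd9 -0.91, edgeR adjusted p = 0.0833), 0 lysosome genes were called in either direction, the calls over all genes were 87 higher and 93 lower, and C1qc was at -0.0066, Spp1 at 0.015 and Cd68 at 0.012. Deviations from the group means correlated at 0.022, -0.17 and -0.26 for OP and HFCF libraries with the same number. No library correlated best with its own number. With 3 libraries a group these correlations cannot exclude a pairing or shared batch by number, which the labels do not state. Low counts limit Gpnmb, Mmp12, Chil3 and Cx3cr1.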
